A study of Homo sapiens with 6 samples.

Results

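The RNA interference machinery described here is a set of 10 genes, found in the deposited gene table by symbol: DROSHA, DGCR8, XPO5, DICER1, TARBP2, AGO1, AGO2, AGO3, AGO4 and TNRC6A. All 10 were present among its 58735 genes, and all 10 passed the filter on low values. Expression was measured by RNA sequencing in Hep-G2, a human liver cancer cell line, in 3 libraries of cells carrying a lentiviral hairpin against CLGN, the endoplasmic reticulum chaperone calmegin (sh-CLGN), and in 3 libraries of cells carrying a non-targeting hairpin (sh-NC). Each group stands on 1 hairpin, both groups had gone through viral transduction and, in the study's methods, puromycin selection, and no untransduced cells were among the samples. The labels do not say whether the 3 libraries of a group came from separate cultures, so p-values measure only the spread between these libraries, which may be technical.

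MicroRNAs are cut from long primary transcripts in the nucleus by the Microprocessor, in which DROSHA is the RNase and DGCR8 its RNA-binding partner. XPO5 (exportin 5) carries the precursor hairpin to the cytoplasm, DICER1 and its partner TARBP2 cut it to a short duplex, and an Argonaute protein keeps 1 strand as the guide that finds target mRNAs. AGO2 is the Argonaute known for slicing a fully paired target, and TNRC6A is a GW182 protein that links Argonautes to the enzymes that deadenylate and decay the target. A simple short hairpin RNA enters the same route at the export step, after the Microprocessor. In that case XPO5, DICER1, TARBP2 and the Argonautes, but not DROSHA and DGCR8, act on the hairpins that both groups carry. The study's methods give the target sequences but not the design of the hairpin transcript.

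The stretch of the CLGN transcript that the sh-CLGN hairpin targets is shown because it gives the seed against which the members' own transcripts were searched. It lies in the coding sequence on the minus strand of GRCh38, chr4:140392328-140392346, and the capitals mark the bases that pair with guide positions 2 to 8, counted from the guide's 5′ end on the assumption that the guide is the exact complement of this stretch.
CLGN target: cgacatatgtaTACCACAa
In the annotated 3′ UTRs of the members, the match to positions 2 to 8 (TACCACA) and the overlapping match to positions 3 to 9 (ATACCAC) each occurred 1 time, both in AGO3. The match to positions 1 to 7 (ACCACAA) occurred 1 time in AGO1 and 1 time in AGO2. The windows of AGO1 and AGO3, on the plus strand at chr1:35925335-35925364 and chr1:36062764-36062793, carry the match in capitals.
AGO1 window: ctttcaagttcACCACAActaccaccaatt
AGO3 window: acaacaaaaaaTACCACAcctcagtaacct
The other 7 members held none of the 3 heptamers. Among 10880 tested genes with an annotated 3′ UTR, 10.8% held TACCACA, 7.90% held ATACCAC, 11.6% held ACCACAA and 21.5% held at least 1 of them. The longest annotated 3′ UTRs of AGO1, AGO2 and AGO3, at 10921, 11888 and 16755 bases, were far above the median of 1366 bases. A match of this kind is a description of letters and not a measured target site.

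Library totals recovered from the table ran from 14955816 to 16244639 reads. Correlations of log2 values were 0.9883 to 0.9918 between libraries of 1 group and 0.9374 to 0.9454 between groups. CLGN, the targeted gene, was at 24.1, 21.0 and 26.1 FPKM (fragments per kilobase of gene, scaled to a library size) in sh-NC and at 9.48, 8.88 and 8.60 FPKM in sh-CLGN, a fall to 37.8% of the sh-NC mean (log2 change -1.31, SE 0.081, adjusted p = 8.35e-06, limma). The library size behind the deposited FPKM was not the read total: it was 0.933 to 0.953 of that total in sh-NC and 1.07 to 1.08 of it in sh-CLGN, a gap of 0.20 on the log2 scale that lowers every sh-CLGN value against scaling by read totals. Differences below are log2 changes of FPKM + 1, sh-CLGN minus sh-NC, from limma. The test ran over the 13074 genes that reached 1 FPKM in 3 or more libraries, with Benjamini-Hochberg adjustment over all of them and 0.05 as the threshold. Of 8 hepatocyte markers, all abundant, 5 were lower and 2 higher in sh-CLGN, among them ALB at 0.536 of the sh-NC mean (log2 change -0.90), TF at 0.322 (-1.62) and AFP at 1.42 (0.50). Of 10 fibroblast markers 7 were tested and all 7 were higher in sh-CLGN, with a summed level of 15.3 to 17.6 FPKM against 136 to 141 FPKM, while DCN, THY1 and ACTA2 had 0 to 5 reads in any library. Of those 7, 4 (COL1A1, COL3A1, LUM and TAGLN) reached the filter only through sh-CLGN, so that they could only be higher. Of 6 leukocyte markers 2 were tested, LYZ (mean 72.9 FPKM in sh-NC and 64.0 FPKM in sh-CLGN) and CD14, and of 4 endothelial markers 1, PECAM1. All were lower, CD14 reaching the filter only through sh-NC, so that it could only be lower. Of all tested genes 65.8% passed, and these lists are not read as a change of cell type. The part of the markers in the results below was not tested. In bulk RNA, fewer cells expressing a gene and less RNA per cell cannot be told apart.

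Of the 10 members, 3 passed the test, AGO2 and AGO3 higher and AGO1 lower. Over all tested genes 65.8% passed (26.7% higher and 39% lower). The count of members called ran from 1 to 5 over the other settings, in which 27.6% to 67.8% of all genes passed. The difference of this count from the background was not tested. No member also reached a log2 change of 1, which 6.28% of all genes did. The libraries of the groups did not overlap for 4 members (AGO2 and AGO3 higher, AGO1 and DGCR8 lower), against 70.2% of all genes. The median absolute log2 change was 0.11 over the members and 0.34 over all genes, although the members were measured with similar precision, with a median SE of 0.0688 against 0.0779. In the main fit, on log2(FPKM + 1), the 95% interval of each of the 10 changes lay within 0.5 of 0 in both directions. This scale understates the change of low genes, and intervals under other settings are not given here. The estimate of AGO3 was 0.48 with TPM rescaling and that of AGO2 was 0.42 with read-total scaling.

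**Figure D1:**
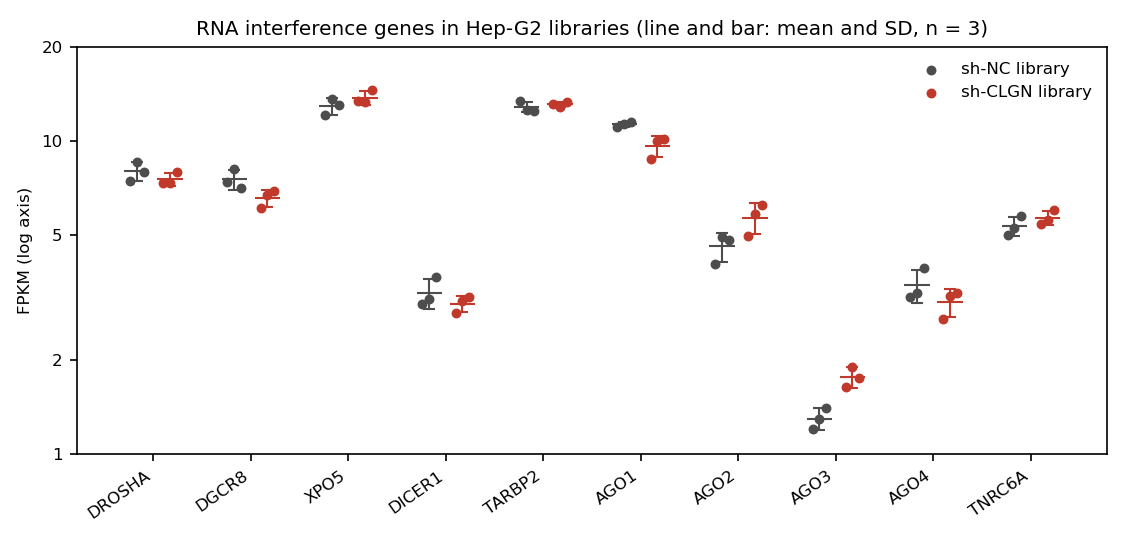
FPKM (vertical log axis) of the 10 genes in each of the 3 sh-NC and 3 sh-CLGN libraries (points), with the mean and SD of each group as line and bar, ordered by role from nuclear cutting to target silencing. Levels span from about 1.20 FPKM for AGO3 to 14.5 FPKM for XPO5, and the groups stand apart for AGO1, AGO2, AGO3 and DGCR8 only.

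The Microprocessor pair did not pass the main test. DROSHA was at 7.46, 8.59 and 7.98 FPKM in sh-NC and at 7.35, 7.35 and 7.97 FPKM in sh-CLGN. The ranges overlapped, and the log2 change was -0.07 (95% interval -0.23 to 0.08, adjusted p = 0.350, limma). DGCR8 was at 7.40, 8.15 and 7.08 FPKM in sh-NC and at 6.12, 6.70 and 6.91 FPKM in sh-CLGN. Every sh-CLGN library lay below every sh-NC library, but the log2 change of -0.17 (95% interval -0.33 to -0.01) missed the threshold with an adjusted p of 0.0601 (limma, unadjusted p = 0.0406). It passed with voom on recovered reads (-0.20, adjusted p = 0.0326) and without sh-NC replicate 3 (-0.21, adjusted p = 0.0330, limma), and was at 0.03 with the GC trend removed. DGCR8 also shares 9.58% of its exonic bases with other genes, among them TRMT2A on the opposite strand, and how the counting treated strand was not given in the sources used here. The ratio of DROSHA to DGCR8 was 1.06 ± 0.0602 (SD, n = 3) in sh-NC against 1.15 ± 0.0522 in sh-CLGN, with overlapping ranges.

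DGCR8 mRNA carries microRNA hairpins in its exons, and DROSHA and DGCR8 are known to cut this mRNA there, so the mature sequences (RefSeq, GRCh38.p14) are shown with the seed, positions 2 to 8, in capitals.
hsa-miR-3618: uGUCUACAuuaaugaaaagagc
hsa-miR-1306-5p: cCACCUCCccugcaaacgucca
hsa-miR-1306-3p: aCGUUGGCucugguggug
They share no seed. The table's rows for MIR3618 and MIR1306 were at 0 in all 6 libraries. Both lie in DGCR8 exons on the same strand, and the study's methods do not say how reads shared between genes were counted. These zeros therefore cannot tell whether the hairpins were transcribed. Across all 1879 microRNA genes of the table, 124 to 134 had a read in an sh-NC library and 169 to 207 in an sh-CLGN library, with 618 to 704 and 697 to 778 reads in all. Over all 58735 genes, 23578 to 23793 had a read in an sh-NC library and 26814 to 27006 in an sh-CLGN library. Whether microRNA genes differed from all genes in this was not tested. Mature microRNAs were not measured in these libraries.

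The export and dicing genes did not pass the main test, though each passed under some other setting. XPO5, at 12.1, 13.7 and 13.1 FPKM in sh-NC and 13.4, 13.3 and 14.5 FPKM in sh-CLGN, was the most abundant member in both groups. Its ranges overlapped and its log2 change was 0.08 (95% interval -0.06 to 0.23, adjusted p = 0.273, limma). It was higher in 4 of 10 other settings, at 0.21 to 0.26 with TPM rescaling, read-total scaling, quantile normalization or the GC trend removed (adjusted p = 0.00599 to 0.0440, limma). TARBP2, the double-stranded RNA-binding partner of Dicer, was at 13.4, 12.6 and 12.5 FPKM and at 13.1, 12.9 and 13.3 FPKM. Its log2 change was 0.03 (SE 0.050, 95% interval -0.09 to 0.14, adjusted p = 0.646, limma). The same 4 settings put it at 0.15 to 0.29 and called it higher (adjusted p = 0.00122 to 0.0356, limma). DICER1 was at 3.01, 3.11 and 3.69 FPKM in sh-NC and at 2.82, 3.08 and 3.16 FPKM in sh-CLGN. Its log2 change was -0.08 (95% interval -0.27 to 0.11, adjusted p = 0.391, limma), or -0.23 with the GC trend removed, where it was lower (adjusted p = 0.0146, limma). The TARBP2 to DICER1 ratio, 3.96 ± 0.535 against 4.35 ± 0.264 (SD, n = 3), overlapped between groups.

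The Argonautes moved in different directions. AGO1 was at 11.1, 11.4 and 11.5 FPKM in sh-NC and at 8.76, 9.98 and 10.2 FPKM in sh-CLGN. All sh-CLGN libraries were below all sh-NC libraries, with the mean at 0.852 of the sh-NC mean (log2 change -0.21, SE 0.064, adjusted p = 0.0191, limma). AGO2 was at 4.05, 4.93 and 4.83 FPKM in the control libraries and rose to 4.98, 5.84 and 6.22 FPKM in sh-CLGN. The lowest sh-CLGN library was only just above the highest sh-NC library, and the log2 change was 0.25 (SE 0.094, 1.23 times the mean, adjusted p = 0.0437, limma). AGO3 was the least abundant member, at 1.20, 1.29 and 1.40 FPKM in sh-NC and at 1.63, 1.89 and 1.74 FPKM in sh-CLGN. The groups were apart, and the log2 change was 0.26 (SE 0.084, 1.36 times the mean, adjusted p = 0.0232, limma). AGO4 was at 3.17, 3.26 and 3.93 FPKM and at 2.70, 3.20 and 3.27 FPKM. Its ranges overlapped and its log2 change was -0.13 (95% interval -0.35 to 0.08, adjusted p = 0.238, limma).

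These calls depended on single libraries and on the scaling. Without 1 of the 6 libraries at a time, AGO1 passed in 5 of 6 fits (log2 change -0.25 to -0.15), AGO2 in 3 of 6 (0.18 to 0.33) and AGO3 in 2 of 6 (0.23 to 0.30), all with the sign kept. Every other member kept its sign in these fits as well. AGO1 was lost without sh-CLGN replicate 1 (adjusted p = 0.0687, limma). AGO2 was lost without sh-NC replicate 1, sh-CLGN replicate 2 or sh-CLGN replicate 3 (adjusted p = 0.135, 0.111 and 0.137, limma). AGO3 was lost without those same 3 libraries (adjusted p = 0.0678, 0.110 and 0.0704, limma) and without sh-NC replicate 2 (0.0520). Over 10 alternative settings AGO1 passed in 6, AGO2 in 9 and AGO3 in 7. AGO1 lost its call with TPM rescaling, read-total scaling (where it was at -0.04), quantile normalization and the GC trend removed. AGO3 lost its call with the last 2 of these, at 0.12 and 0.11, and both AGO2 and AGO3 lost theirs without a filter, where more genes enter the adjustment. A factor common to all genes of a library largely cancels in the difference between 2 members, but quantile normalization and the removal of the GC trend do not. The log2 change of AGO2 exceeded that of AGO1 by 0.47, and by 0.36 to 0.54 over 18 other settings. That of AGO3 exceeded AGO1 by 0.48, and by 0.18 to 0.67 over the same settings, with 0.18 under quantile normalization and 0.25 with the GC trend removed. These pairs were taken because their calls went in opposite directions, so the differences carry no separate test.

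**Figure D2:**
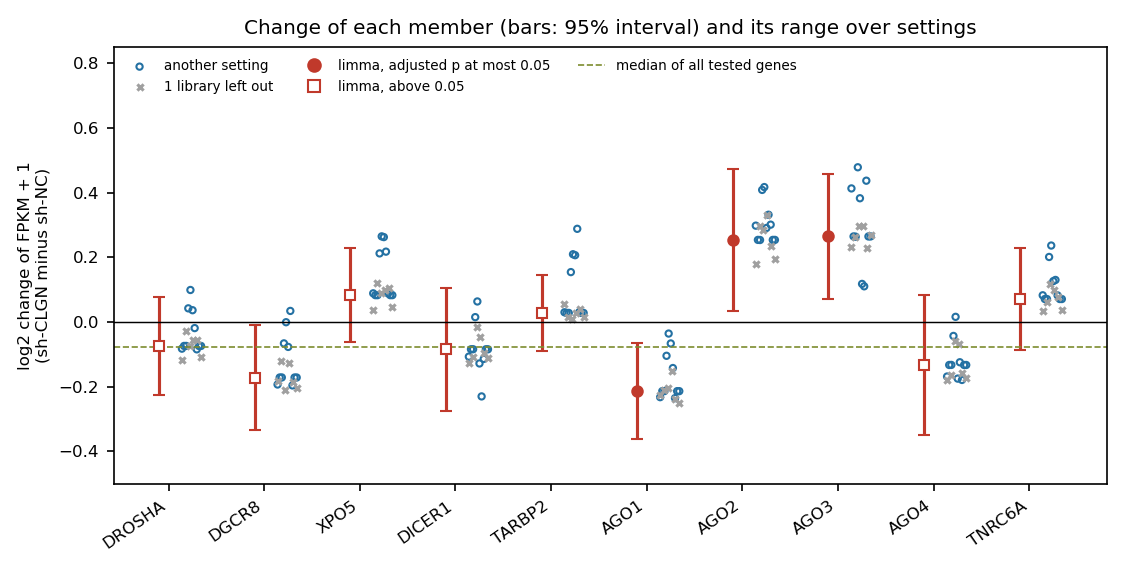
Log2 change of FPKM + 1 (sh-CLGN minus sh-NC) of each gene with its 95% interval (red; filled circles for adjusted p at most 0.05), beside the same change under 10 other settings (blue circles) and with 1 library left out (grey crosses). AGO2 and AGO3 stay above 0 and AGO1 below 0 in every fit. XPO5, TARBP2 and TNRC6A, not called in the main fit, also stay above 0. AGO4, DICER1, DROSHA and DGCR8 lie on both sides of 0. The dashed line is the median of all tested genes, -0.08.

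Within each library the 4 Argonautes can be set against each other per length. Their summed level was 20.7 ± 1.08 FPKM (SD, n = 3) in sh-NC against 20.1 ± 1.81 FPKM in sh-CLGN, with overlapping ranges. AGO1 made up 54.8% ± 1.95 of this sum in sh-NC and 47.9% ± 0.491 in sh-CLGN. The share of AGO2 was 22.2% ± 1.46 against 28.2% ± 0.774, and that of AGO3 was 6.26% ± 0.179 against 8.74% ± 0.528. AGO4 went from 16.7% ± 1.31 to 15.2% ± 0.196. For all 4 shares the 3 libraries of 1 group lay apart from those of the other. The ratio of AGO1 to AGO2 was 2.48 ± 0.236 in sh-NC and 1.70 ± 0.0613 in sh-CLGN. These shares restate the levels above as a composition and carry no separate test.

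**Figure D3:**
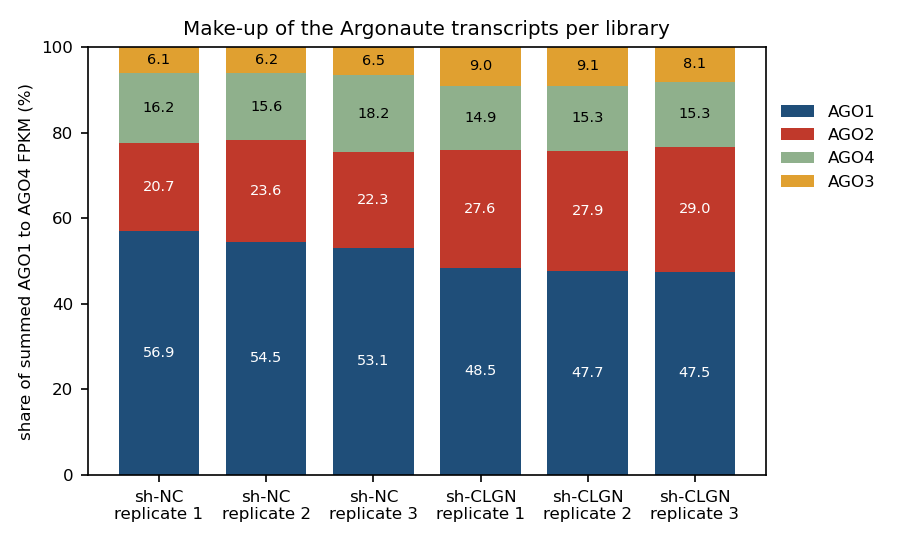
Share of each Argonaute in the summed AGO1 to AGO4 FPKM (percent, stacked to 100), 1 bar for each of the 6 libraries. AGO1 takes 53.1 to 56.9% in the sh-NC bars and 47.5 to 48.5% in the sh-CLGN bars, and the AGO2 and AGO3 segments are wider in sh-CLGN.

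AGO4, AGO1 and AGO3 lie in this order on the plus strand of chromosome 1, from 35808172 to 36072500 (GRCh38). AGO1 ends at 35930528 and AGO3 begins at 35930718, so the neighbours that were called in opposite directions nearly touch. Their promoters (RefSeq, GRCh38.p14, plus strand, chr1:35882959-35883258 and chr1:35930855-35931154) are shown because of this contrast, with matches to 5 motifs in capitals, searched on both strands. Both windows lie inside the deposited gene bounds and not upstream of them, with AGO1 beginning at 35869808.
AGO1 promoter: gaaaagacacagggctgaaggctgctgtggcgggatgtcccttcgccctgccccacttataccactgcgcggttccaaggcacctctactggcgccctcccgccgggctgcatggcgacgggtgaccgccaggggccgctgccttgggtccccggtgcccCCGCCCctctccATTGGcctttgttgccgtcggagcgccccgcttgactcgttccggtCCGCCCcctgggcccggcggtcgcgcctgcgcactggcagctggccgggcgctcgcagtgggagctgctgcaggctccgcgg
AGO3 promoter: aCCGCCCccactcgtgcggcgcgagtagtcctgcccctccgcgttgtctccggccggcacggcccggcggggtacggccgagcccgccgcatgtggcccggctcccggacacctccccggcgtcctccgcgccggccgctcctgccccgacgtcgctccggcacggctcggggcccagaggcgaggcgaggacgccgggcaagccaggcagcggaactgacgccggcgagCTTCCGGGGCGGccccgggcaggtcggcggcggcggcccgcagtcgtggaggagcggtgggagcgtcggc
Both held 2 GC boxes (GGGCGG, in 45.0% of all 35116 promoters of the same length). AGO1 held 1 CCAAT (34.6%), and AGO3 held 1 ETS core (CCGGAAG, 10.3%) that overlaps a GC box. Neither held TATAAA (11.5%) or CACGTG (7.26%). The AGO1 window was 72.3% G or C with 30 CpG and the AGO3 window 80% with 50 CpG, both above the medians of 58.7% and 14 over all promoters.

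TNRC6A was at 5.02, 5.28 and 5.77 FPKM in sh-NC and at 5.42, 5.61 and 6.0 FPKM in sh-CLGN. The ranges overlapped, and the log2 change was 0.07 (95% interval -0.09 to 0.23, adjusted p = 0.383, limma), or 0.24 with read-total scaling, where it was higher (adjusted p = 0.0178, limma). Its paralogs, which are not members, differed more. TNRC6C was at 2.56, 2.45 and 2.62 FPKM in sh-NC and 0.769, 0.802 and 0.803 FPKM in sh-CLGN (log2 change -0.98, adjusted p = 2.17e-05, limma), and it passed the low-value filter only through the sh-NC libraries. TNRC6B, named after its values were seen, was at 3.37, 3.52 and 3.96 FPKM and at 5.39, 5.67 and 5.79 FPKM (log2 change 0.52, adjusted p = 0.000328, limma). TNRC6A held 46.5% ± 0.573 of the summed TNRC6 level in sh-NC and 47.0% ± 0.621 in sh-CLGN, while TNRC6B went from 31.4% ± 0.650 to 46.5% ± 0.480 and TNRC6C from 22.1% ± 1.12 to 6.55% ± 0.153 (SD, n = 3).

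Ordered by level per length in sh-NC, XPO5 and TARBP2 came first with overlapping libraries, followed by AGO1, by DROSHA and DGCR8 together, by TNRC6A, AGO2, AGO4 and DICER1 together, and by AGO3. In sh-CLGN the order was alike, except that DROSHA stood apart from DGCR8, that DGCR8 overlapped AGO2, and that AGO2, at 5.68 ± 0.637 FPKM, drew level with TNRC6A at 5.68 ± 0.295 FPKM. The level of a member within its group went with the library. Replicate 1 was the lowest library for 8 of 10 members in sh-NC and for 7 of 10 in sh-CLGN. Replicate 3 was the highest for 5 of 10 in sh-NC and for 9 of 10 in sh-CLGN. GC content of the longest transcript ran from 38.9% for AGO3 to 60.8% for TARBP2. Split into 10 equal bins by GC, all tested genes had a median log2 change of 0.23 at the low end and -0.29 at the high end. Among the called members AGO1, which was lower, had 46.4%, while AGO2 and AGO3, which were higher, had 46.6% and 38.9%. With the GC trend removed AGO2 kept its call (0.33, adjusted p = 0.0118, limma), and AGO1 (-0.14) and AGO3 (0.11) lost theirs. The part of GC content in these calls was not tested.

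The wider lists of pathway genes held larger single changes than the members. Of all tested genes 65.8% passed (26.7% higher, 39% lower). The shares called were 60% of 10 Microprocessor partners, 53.8% of 13 precursor partners and 63.0% of 27 decay effectors. With so few genes these shares are not read as a difference from the background, which was not tested. Of 10 Microprocessor partners, 5 were lower and 1 was higher, 60% in all. METTL3, the m6A methyltransferase that marks primary transcripts, fell from 12.7 ± 0.770 to 7.20 ± 0.383 FPKM (log2 change -0.74, adjusted p = 3.69e-05, limma). The splicing factor SRSF3 (log2 change -0.42), KHSRP (-0.40), which binds precursor loops, and SAFB (-0.27) were also lower. With quantile normalization all 3 lost the call (-0.14, -0.08 and 0.00), and SAFB also lost it with read-total scaling (-0.08) and with the GC trend removed (-0.07). Of 13 tested genes that export, edit, tail or help dice precursors, 4 were higher and 3 lower, 53.8% in all. PRKRA (PACT), another partner of Dicer, fell from 8.38 ± 0.443 to 5.21 ± 0.546 FPKM (log2 change -0.60, adjusted p = 0.000306, limma). The editing enzyme ADAR was lower (-0.38, but -0.10 and not called with quantile normalization), and the uridylyltransferase TUT7 (0.52) and the precursor-cleaving RNase ZC3H12A (0.42) were higher.

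Among 22 tested Argonaute loading factors and partners, 10 were higher and 9 lower, 86.4% in all against 65.8% of all tested genes. The difference between these shares was not tested. TNRC6C, 1 of the 9, passed the filter only through sh-NC, so that it could only be lower. The loading chaperone HSPA8 rose from 169 ± 2.90 to 305 ± 8.74 FPKM (log2 change 0.85, adjusted p = 4.79e-06, limma). The LIM-domain proteins AJUBA and LIMD1, which bind Argonautes, fell from 73.9 ± 2.88 to 27.5 ± 1.15 FPKM (log2 change -1.39) and from 9.25 ± 0.757 to 4.30 ± 0.187 FPKM (log2 change -0.95). Of 27 genes of deadenylation and decapping, 6 were higher and 11 lower, 63.0% in all. CNOT3, a subunit of the CCR4-NOT deadenylase, fell from 14.5 ± 1.46 to 6.35 ± 0.570 FPKM (log2 change -1.07, adjusted p = 2.66e-05, limma), and CNOT9 (-0.52), the decapping cofactor EDC3 (-0.48) and the poly(A)-binding protein PABPC1 (-0.42, but -0.11 and not called with quantile normalization) were lower too. The median log2 changes of these 4 lists, -0.19, 0.10, -0.01 and -0.08 in the order given, stood beside -0.08 over all genes.

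**Figure D4:**
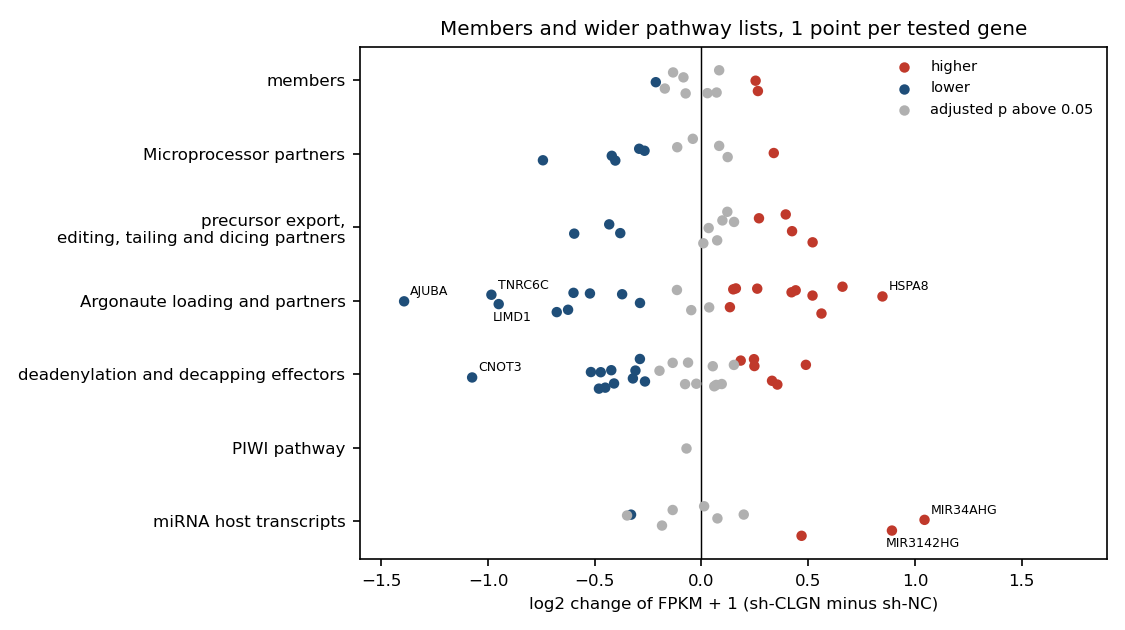
Log2 change of FPKM + 1 (sh-CLGN minus sh-NC, horizontal axis) of each tested gene in the member set and in 6 wider lists, red for higher, blue for lower and grey for adjusted p above 0.05. Vertical position within a row has no meaning. The members lie between -0.21 and 0.26, inside the span of the 4 partner lists, which reach from AJUBA at -1.39 to HSPA8 at 0.85.

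The PIWI branch, which works with germline small RNAs, had few reads. Of 10 listed genes only the mitochondrial PLD6 was tested (log2 change -0.07, adjusted p = 0.513, limma), and PIWIL1, MAEL, TDRD1 and ASZ1 had no read in any library. Of 62 microRNA host transcripts, 10 were tested, 3 were higher and 1 was lower, 40% in all against 65.8% of all tested genes, a difference that was not tested. MIR34AHG, host of miR-34a, went from 0.287 ± 0.0888 to 1.65 ± 0.0253 FPKM (log2 change 1.05, adjusted p = 5.04e-05, limma). MIR3142HG (0.89) and MIR4453HG (0.47) were higher and MIR4435-2HG (-0.33) was lower. MIR34AHG and MIR4453HG passed the filter only through sh-CLGN, so that they could only be higher.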

How the data were processed

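The authors prepared total RNA libraries of Hep-G2 cells. Per the submitters' processing notes reads were aligned with HISAT2 2.0.5 to GRCh38 and counted with featureCounts. The deposited FPKM are the authors' values per gene length and a library size that differed from the read total (0.933 to 0.953 of it in sh-NC, 1.07 to 1.08 in sh-CLGN), for a reason not given in the sources used here, and the deposited gene length is the authors' exonic length in bases. Annotation release, strandedness and the authors' test were not given in the sources used here. FPKM times gene length gave whole reads within 0.01, which recovered the depth per library.

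The test was limma 3.58.1 with an intensity trend (R 4.3.3) on log2(FPKM + 1), which understates the change of low genes, with genes of at least 1 FPKM in at least 3 libraries kept. It was also run on simulated data in which few genes changed and library sizes equalled the read totals. Those data differ from the libraries here in both respects, so that run does not check the calls given above. Named genes were all members, CLGN and the 4 smallest adjusted p of each wider pathway list. Marker genes, TNRC6B and the PIWI genes without reads were named outside this rule, after their values were seen. Members and lists were chosen with earlier results of these data known. Replicate numbers did not enter the fit. Intervals cover the spread between libraries. Promoters and microRNAs came from RefSeq (9 of 10 members matched a promoter), and 3′ UTRs from GENCODE 29. Tables were drawn up with Python 3.11.15.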

Additional observations from a re-analysis of the deposited data

How the results depend on the processing

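CLGN stayed lower and past the threshold in every fit. Members called numbered 1 without a filter (27.6% of all genes called) and 5, all higher, with read-total scaling (64.1%), against 3 (65.8%). With 1 library left out they numbered 1 to 4 (57.3% to 67.5% of all genes). They fell to 1 without sh-NC replicate 1 (61.3%), without sh-CLGN replicate 2 (57.3%) and without sh-CLGN replicate 3 (59.3%). Genes past both thresholds numbered 1606 with a pseudocount of 0.1, 1426 with TPM rescaling and 1722 with voom on recovered reads, against 821. Rescaling reversed some small changes: DICER1 (0.0150) and DROSHA (0.0421) with TPM, AGO4 (0.0159), DICER1 (0.0634) and DROSHA (0.0989) with read totals, DROSHA (0.0364) with quantile normalization, and DGCR8 (0.0341) with the GC trend removed. Higher genes made up 40.7% of calls, 52.2% with TPM and 59.2% with read totals, with the all-gene median shifted by 0.11 and 0.16. For read totals this shift follows from the construction, since the size behind the deposited FPKM was above the total in sh-CLGN and below it in sh-NC. For the other settings the cause was not tested.

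In a first run, the low-value filter was applied to the rescaled values as well, which changes 2 choices at once. It was then held on FPKM, and the earlier fits are given as alternatives chosen after seeing the data. They gave 2103 genes past both thresholds with TPM (17877 genes tested, 58.4% of calls higher) and 5 members called with read totals (64.2% of all genes called). The reversed values were the same for AGO4 (0.0159), DICER1 (0.0150 and 0.0634) and DROSHA (0.0421 and 0.0989).

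With the replicate block 3 members and 61.5% of all genes were called. Over all tested genes same-numbered libraries did not deviate together (correlations -0.0184, -0.0460 and -0.1455). Among the members, replicate 1 was the lowest library for 8 of 10 in sh-NC and for 7 of 10 in sh-CLGN. These values cannot settle whether the numbers pair the samples, which the labels do not say. Members had 321 to 2469 reads in a library, and the largest SE was that of AGO2 (0.0943).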
